A study of Mus musculus with 2 samples.

Results

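The posterior Hox genes Hoxa9, Hoxa10, Hoxa11, Hoxa13, Hoxb9, Hoxb13, Hoxd11 and Hoxd13 were followed across the cell types of intestinal adenoma cultures of the mouse, to see which lineages carried them. These 8 genes were matched by symbol among the 27514 genes that both count tables hold, and all 8 were found. They were chosen with earlier values of these libraries known, so their levels are given as a description, with no test. The cultures were grown as organoids from intestinal adenomas of C57BL/6 mice of 17 weeks that carry the Min allele of Apc (ApcMin/+), a tumour suppressor that restrains Wnt signalling. A culture with RSPO1-Fc at 10 μg/ml, a protein in which the Wnt agonist R-spondin 1 is joined to the Fc region of an antibody, was compared with a control culture without it. All cells of both groups carry the Apc allele. The labels do not give the sex, the number of animals or the intestinal segment of either culture. Each group was 1 droplet library of single cells with 3′ counting of unique molecular identifiers (UMIs), so no difference between the cultures has a replicate check. The labels name 10 mg/ml in another field of the treated sample.

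Hox genes encode transcription factors with a homeodomain that binds DNA, and they lie in 4 clusters. Along each cluster, genes of higher number are used further toward the posterior end of the embryo, and adult fibroblasts, smooth muscle and gut epithelium keep part of this positional code. In the gut the highest-numbered genes mark the hindgut, and Cdx factors act upstream of Hox genes in the embryo. Hox proteins bind DNA together with Pbx, Meis and Pknox proteins, and Polycomb and trithorax complexes hold the clusters silent or active.

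The homeobox is the part that makes these 8 genes 1 family, and it also shows how alike the members are to each other. The last 20 codons of the homeobox, codons 41 to 60, are printed 5′ to 3′ on the coding strand from GENCODE M21 transcripts of GRCm38, the assembly also called mm10. They are shown for 7 of the members. Capitals mark bases unlike Hoxa10. The stretches lie at chr6:52232554-52232613, chr6:52243402-52243461 and chr6:52258928-52258987 (minus strand) for Hoxa10, Hoxa11 and Hoxa13. Those of Hoxb9 and Hoxb13 lie at chr11:96274779-96274838 and chr11:96196140-96196199, and those of Hoxd11 and Hoxd13 at chr2:74684037-74684096 and chr2:74670050-74670109 (plus strand).
Hoxa10: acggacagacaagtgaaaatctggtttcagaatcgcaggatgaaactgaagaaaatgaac
Hoxa11: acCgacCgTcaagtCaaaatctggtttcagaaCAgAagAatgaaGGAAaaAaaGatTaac
Hoxa13: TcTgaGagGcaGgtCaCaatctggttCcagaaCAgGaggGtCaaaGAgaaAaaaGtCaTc
Hoxb9: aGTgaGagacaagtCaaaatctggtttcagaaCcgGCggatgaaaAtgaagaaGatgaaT
Hoxb13: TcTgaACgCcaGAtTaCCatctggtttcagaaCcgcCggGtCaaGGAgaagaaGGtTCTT
Hoxd11: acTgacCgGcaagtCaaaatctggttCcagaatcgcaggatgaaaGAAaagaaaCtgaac
Hoxd13: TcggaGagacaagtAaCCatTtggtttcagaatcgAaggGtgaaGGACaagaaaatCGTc
Over all 180 bases of the homeobox, Hoxb9 was 75.0% and Hoxd11 69.4% identical to Hoxa10. Hoxa11 and Hoxd11 were 80.6% identical to each other, Hoxa13 and Hoxd13 73.9%, and Hoxa13 and Hoxb13 68.9%. No pair of these 7 was identical, and reads were counted at the 3′ end of transcripts.

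The genes span chr6:52223100-52231089 (Hoxa9), chr6:52231197-52240854 (Hoxa10), chr6:52242106-52245810 (Hoxa11), chr6:52257694-52260880 (Hoxa13), chr11:96271457-96276595 (Hoxb9), chr11:96194316-96197447 (Hoxb13), chr2:74679557-74687016 (Hoxd11) and chr2:74668310-74671599 (Hoxd13). In the annotation Hoxa9 overlaps Mir196b and Hoxd11 overlaps Gm28309 on the same strand, and Hoxa11 overlaps Hoxa11os on the opposite strand. None of these 3 partners is in either count table, so the UMIs of Hoxa9, Hoxa11 and Hoxd11 could hold reads of both. How strand was used in counting is not given in the sources used here.

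Before the results, the cells and libraries are described. The RSPO1-Fc library held 89437327 UMIs and the control library 91675581, and 3143 and 3464 barcodes reached 2000 UMIs, where the labels state a target of 5000 captured cells each. Epithelial cells had at least 5 UMIs of Epcam, an adhesion protein of epithelia, which gave 2972 RSPO1-Fc cells (median 22498.5 UMIs) and 1968 control cells (median 26228). Fibroblast-like cells (142, median 9722), pericyte-like cells (73, median 9470), endothelial-like cells (121, median 12963) and macrophage-like cells (301, median 10569) of the control had fewer than 5 Epcam UMIs, at least 10 UMIs of the gate genes of their type and at least 4 of those genes detected. The RSPO1-Fc library held 0 cells of each of these 4 classes, so the comparison across lineages rests on the control. All markers kept out of the gates were at 5 CPM (UMIs of a gene per 1e+06 UMIs of the class) or more in their own class, which were 8 of 8 for fibroblasts and 7 of 7 each for pericytes, endothelial cells and macrophages. The 8 epithelial markers kept out of the gate were all at 5 CPM or more in both epithelial classes, with sums of 9671 CPM in RSPO1-Fc and 6442 CPM in control epithelium. Pericyte-like cells also carried 6 of 8 fibroblast markers at 5 CPM or more, with a sum of 3650 CPM against 5643 CPM in fibroblast-like cells. Fibroblast-like cells carried 7 of 7 pericyte markers at this level, with a sum of 2544 CPM against 8963 CPM in pericyte-like cells. Pericyte-like cells carried 5 of 7 endothelial markers, at 656 CPM in sum against 3914 CPM in endothelial-like cells. The part of this overlap in the members' levels was not tested. Cells at 5 to 9 Epcam UMIs numbered 208 in RSPO1-Fc and 98 in control epithelium, and 2, 0, 10 and 9 fibroblast-, pericyte-, endothelial- and macrophage-like cells had 10 to 19 gate UMIs. Just above the Epcam gate the 8 members summed to 0 UMIs in RSPO1-Fc and 338 CPM (interval 297 to 383) in control cells. Just below it, at 3 to 4 Epcam UMIs, they summed to 0 UMIs in 90 RSPO1-Fc cells and 259 CPM (207 to 320) in 66 control cells. The cells of the libraries shared 0 barcodes.

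Posterior Hox genes were carried by 4 of the 5 control lineages, each with its own set, and were near 0 in RSPO1-Fc epithelium. Control epithelium held 6 members at 5 CPM or more, namely Hoxa9, Hoxa10, Hoxa11, Hoxa13, Hoxb9 and Hoxb13. Fibroblast-like cells held 5, the 4 HoxA genes and Hoxd11, and pericyte-like cells held the 4 HoxA genes. Endothelial-like cells held 3, Hoxa9, Hoxa10 and Hoxb9. Macrophage-like and RSPO1-Fc epithelial cells held 0. Of all 27514 genes, the share at 5 CPM or more was 34.2% in RSPO1-Fc epithelium, 37.1% in fibroblast-like, 35.7% in pericyte-like, 34.3% in endothelial-like, 32.5% in macrophage-like and 36.8% in control epithelial cells. The members were chosen on these levels, so nothing is read from their counts against these shares. Member UMIs were found in 4 of 2972 RSPO1-Fc epithelial cells, 113 of 142 fibroblast-like, 51 of 73 pericyte-like, 84 of 121 endothelial-like, 22 of 301 macrophage-like and 1932 of 1968 control epithelial cells. The 36 control epithelial cells without a member UMI were shallow, with a median of 5199 UMIs and a highest total of 14595. In the following, ranges in parentheses are 95% intervals of counting error only and do not cover variation between cells or cultures.

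**Figure D1:**
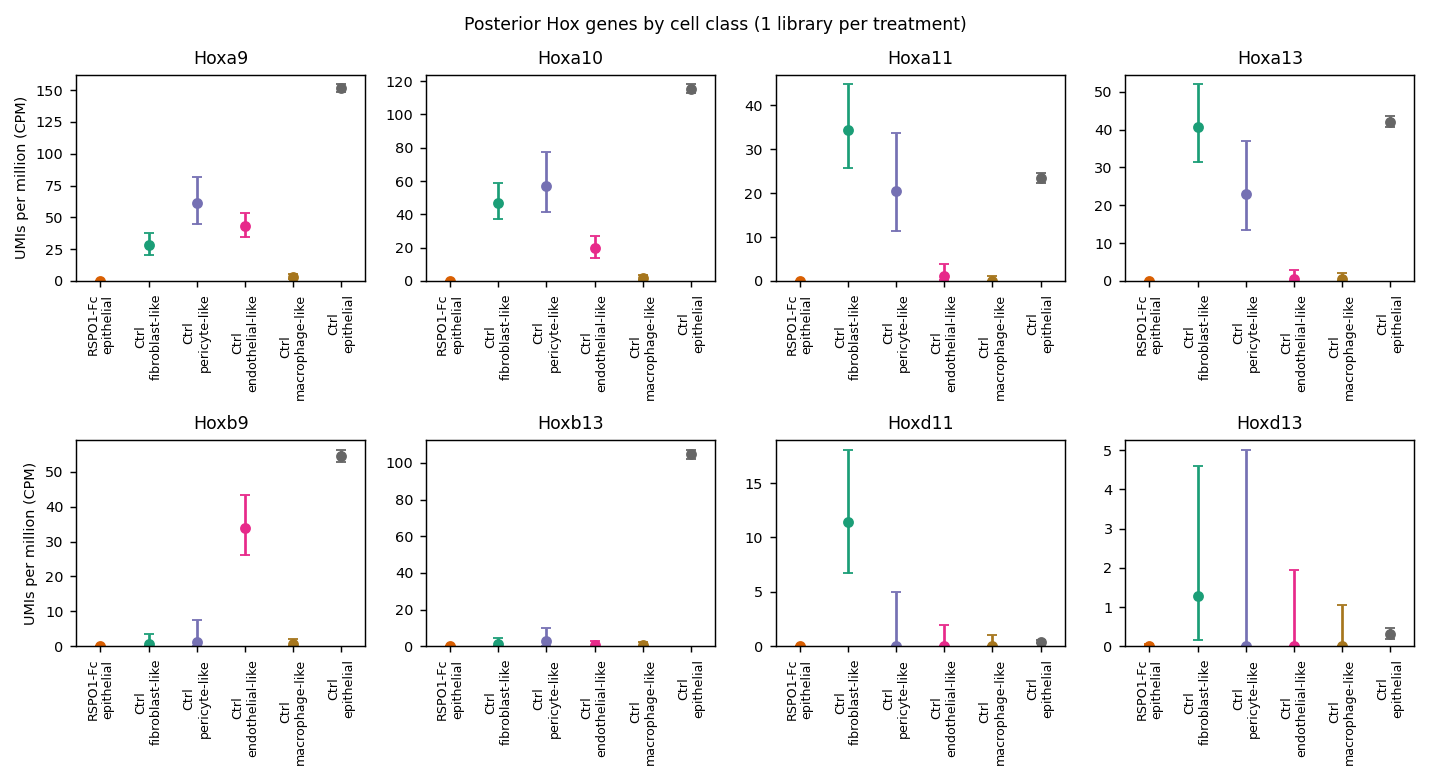
CPM (vertical axes, each from 0) of the 8 posterior Hox genes in RSPO1-Fc epithelial cells and the 5 control cell classes (horizontal axes). Points are sums over the cells of a class and bars exact Poisson intervals. The 4 HoxA genes stand above 20 CPM in fibroblast-like, pericyte-like and control epithelial cells, Hoxb9 in endothelial-like and control epithelial cells, Hoxb13 in control epithelial cells, and Hoxd11 reaches 11.4 CPM in fibroblast-like cells.

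Hoxa9 and Hoxa10, the neighbours at the front of the posterior HoxA genes, were the members with the widest reach. Hoxa9, known for its role in blood stem cells and leukaemia, had 1 UMI in RSPO1-Fc epithelium (0.0141 CPM), 44 in fibroblast-like cells (27.95 CPM, 20.3 to 37.5) and 45 in pericyte-like cells (61.1 CPM, 44.6 to 81.8). It had 82 UMIs in endothelial-like cells (43.4 CPM, 34.5 to 53.8), 11 in macrophage-like cells (3.11 CPM, 1.55 to 5.56) and 9970 in control epithelium (152 CPM, 149 to 155). From low to high, the order was RSPO1-Fc epithelium, macrophage-like, fibroblast-like, endothelial-like, pericyte-like and control epithelial cells. The intervals of the middle neighbours, fibroblast-like and endothelial-like as well as endothelial-like and pericyte-like, overlapped, and control epithelium stood clear of all. Hoxa9 was 5.42-fold lower in fibroblast-like (4.04 to 7.47), 2.48-fold lower in pericyte-like (1.85 to 3.40) and 3.50-fold lower in endothelial-like cells (2.81 to 4.40) than in control epithelium.

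Hoxa10, which patterns the uterus and the hindlimb in the mouse, had 1 UMI in RSPO1-Fc epithelium, 74 in fibroblast-like cells (47.01 CPM, 36.9 to 59.02) and 42 in pericyte-like cells (57.1 CPM, 41.1 to 77.1). Endothelial-like cells had 37 UMIs (19.6 CPM, 13.8 to 27.0), macrophage-like cells 6 (1.70 CPM, 0.622 to 3.69) and control epithelium 7589 (115 CPM, 113 to 118). Fibroblast-like and pericyte-like cells overlapped in their intervals, while endothelial-like cells lay below both. Shares of cells with a Hoxa10 UMI were 38.0% of fibroblast-like, 35.6% of pericyte-like, 25.6% of endothelial-like, 1.99% of macrophage-like and 83.2% of control epithelial cells. After thinning every cell to 2000 UMIs these shares were 8.45%, 12.3%, 3.31%, 0.997% and 19.3% in the same classes.

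Hoxb9, a group 9 gene of the HoxB cluster, was split between lineages in another way. It had 64 UMIs in endothelial-like cells (33.8 CPM, 26.1 to 43.2), held by 39 of the 121 cells, against 3584 UMIs in control epithelium (54.5 CPM, 52.7 to 56.3). That is 1.61-fold lower in endothelial-like cells (1.26 to 2.09). Fibroblast-like and pericyte-like cells each had 1 Hoxb9 UMI, macrophage-like cells had 2 and RSPO1-Fc epithelium had 2. So of the group 9 genes, fibroblast-like and pericyte-like cells carried Hoxa9 and endothelial-like cells carried both.

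The group 11 genes Hoxa11 and Hoxd11, which together shape the kidney and forelimb in the mouse, stood out in fibroblast-like cells. Hoxa11 had 0 UMIs in RSPO1-Fc epithelium, 54 in fibroblast-like cells (34.3 CPM, 25.8 to 44.8), 15 in pericyte-like cells (20.4 CPM, 11.4 to 33.6), 2 in endothelial-like cells, 0 in macrophage-like cells and 1537 in control epithelium (23.4 CPM, 22.2 to 24.6). Fibroblast-like cells were at 147% of the control epithelial level (110% to 193%). Pericyte-like cells were at 87.2% (48.7% to 144%), an interval that holds both a lower and a higher level. After thinning, 7.75% of fibroblast-like cells (3.93% to 13.4%) and 4.78% of control epithelial cells (3.88% to 5.81%) had a Hoxa11 UMI, and these intervals overlapped.

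Hoxd11 had 18 UMIs in 15 of the 142 fibroblast-like cells (11.4 CPM, 6.78 to 18.1), with at most 3 in 1 cell. It had 0 UMIs in RSPO1-Fc epithelium, 0 in pericyte-like, 0 in endothelial-like and 0 in macrophage-like cells, where 3 UMIs would be 4.08, 1.59 and 0.848 CPM. Control epithelium had 26 UMIs in 9 of 1968 cells (0.395 CPM, 0.258 to 0.579), so the fibroblast-like level was 28.9-fold higher (14.9 to 54.8). Of the 15 fibroblast-like cells with Hoxd11, 4 also had a Hoxa13 UMI, where 49 of all 142 did.

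The group 13 genes mark the posterior end of the body, and they differed in the cells that carried them. Hoxa13, needed for the limb, the hindgut and the urogenital tract of the mouse, had 0 UMIs in RSPO1-Fc epithelium, 64 in fibroblast-like cells (40.7 CPM, 31.3 to 51.9) and 17 in pericyte-like cells (23.1 CPM, 13.5 to 37.0). Endothelial-like cells had 1 UMI, macrophage-like cells 2 and control epithelium 2769 (42.1 CPM, 40.5 to 43.7). Fibroblast-like cells were at 96.6% of the control epithelial level (74.2% to 124%) and pericyte-like cells at 54.9% (31.9% to 88.0%). The fibroblast-like and pericyte-like intervals of Hoxa13 overlapped. Thinned shares of cells with Hoxa13 were 11.3% of fibroblast-like (6.58% to 17.6%) and 9.25% of control epithelial cells (8.00% to 10.6%).

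Hoxb13, known from the prostate and the distal colon, had 0 UMIs in RSPO1-Fc epithelium, 2 in fibroblast-like, 2 in pericyte-like, 1 in endothelial-like and 3 in macrophage-like cells. Control epithelium had 6886 UMIs (105 CPM, 102 to 107), in 74.3% of its cells, while each other control class had at most 3 UMIs. Hoxd13, mutated in human hand malformations, had 2 UMIs in fibroblast-like cells, 0 in each other non-epithelial class and in RSPO1-Fc epithelium, and 20 UMIs in 7 control epithelial cells. Its level in fibroblast-like cells, 1.27 CPM (0.154 to 4.59), overlapped the 0.304 CPM (0.186 to 0.470) of control epithelium.

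Free RNA from broken cells puts UMIs of epithelial genes into other cells, and its size was measured on the 8 epithelial marker genes that no gate used. Their summed level, relative to control epithelium, was 2.40% in fibroblast-like, 1.498% in pericyte-like, 1.03% in endothelial-like and 1.72% in macrophage-like cells. At these ratios 9.20 Hoxa9, 7.002 Hoxa10, 2.55 Hoxa13, 3.31 Hoxb9 and 6.35 Hoxb13 UMIs would fall in macrophage-like cells, where 11, 6, 2, 2 and 3 were counted. The macrophage-like values are therefore read as background. The same holds for Hoxb13 in fibroblast-like (2 counted, 3.95 at the ratio), pericyte-like (2 and 1.15) and endothelial-like cells (1 and 2.05), for Hoxb9 in fibroblast-like and pericyte-like cells, and for Hoxa13 in endothelial-like cells (1 and 0.823). In contrast, fibroblast-like cells held 44 Hoxa9 UMIs where 5.72 would fall, 64 Hoxa13 UMIs against 1.59 and 18 Hoxd11 UMIs against 0.0149. Endothelial-like cells held 64 Hoxb9 UMIs against 1.07 and 82 Hoxa9 UMIs against 2.96. In barcodes with over 100 and up to 500 UMIs, Hoxb13 was at 78.2 CPM and Hoxa9 at 89.9 CPM in the control, so free posterior Hox RNA was present there.

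**Figure D2:**
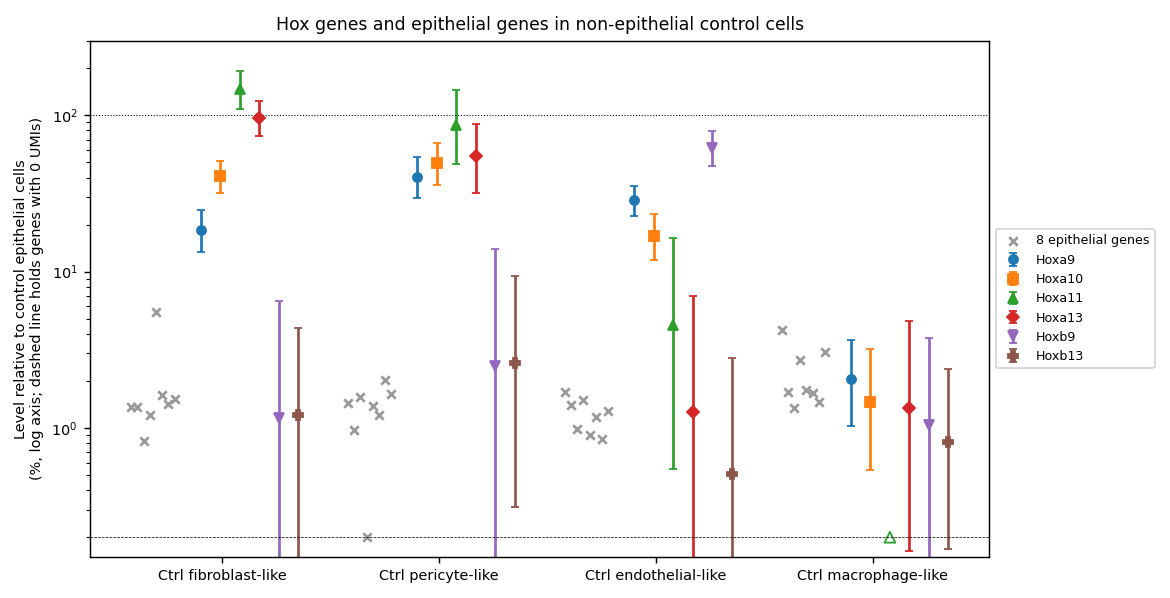
Level relative to control epithelial cells (vertical axis, %, log scale) in the 4 non-epithelial control classes (horizontal axis), for 6 posterior Hox genes (coloured points with 95% intervals, cut at the lower edge where they run below it) and 8 epithelial genes (grey crosses). HoxA genes lie above the crosses in fibroblast-like and pericyte-like cells and Hoxb9, Hoxa9 and Hoxa10 in endothelial-like cells, whereas the intervals of Hoxb13 and of the macrophage-like values reach down among or below the crosses.

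RSPO1-Fc epithelium carried nearly no posterior Hox RNA. The 8 genes summed to 4 UMIs in 2972 RSPO1-Fc cells (0.0562 CPM) and to 32381 UMIs in 1968 control epithelial cells (492 CPM). Hoxa9 was 10786-fold lower (1935 to 426063), Hoxa10 8210-fold lower (1473 to 324322) and Hoxb9 1939-fold lower (536 to 16014). These 3 ratios rest on 1, 1 and 2 UMIs in RSPO1-Fc epithelium, so their size is known only within these wide intervals. Against a floor of 3 UMIs in the class, Hoxb13 was at least 2483-fold, Hoxa13 at least 999-fold, Hoxa11 at least 554-fold, Hoxd11 at least 9.38-fold and Hoxd13 at least 7.21-fold lower. With the same floor of 3, a count of 0 in 2972 cells allows up to 0.101% of cells with a UMI. The 171 RSPO1-Fc barcodes outside the epithelial gate also held 0 member UMIs. Among 6910 genes with at least 20 CPM in either class, 18.5% were at least 2-fold lower and 7.25% at least 2-fold higher in RSPO1-Fc epithelium. All 6 members that reach this level were lower, but they had been chosen on this contrast.

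The other lineages were set against control epithelium by the same 2-fold limit, where 6 members reached 20 CPM each time. In fibroblast-like cells 4 were lower, against 20% of all genes tested, and in pericyte-like cells 4 were lower, against 21.2%. In endothelial-like cells 5 were lower against 19.8%, and in macrophage-like cells all 6 against 28.8%. Of these members 2 in fibroblast-like, 2 in pericyte-like, 4 in endothelial-like and all 6 in macrophage-like cells reached 20 CPM through control epithelium alone, so they had to come out lower there, and nothing is read from these counts. No member of these 6 was 2-fold higher than in control epithelium in any class. The median log2 ratio of all 8 members, with a pseudocount of 1 CPM, was -5.59 in RSPO1-Fc epithelial, -0.66 in fibroblast-like, -0.92 in pericyte-like, -2.14 in endothelial-like and -4.97 in macrophage-like cells. Over all genes tested the medians were -0.17, -0.17, -0.15, -0.15 and -0.46 in the same classes.

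The mix of the 4 HoxA genes differed between lineages. Of 236 UMIs of these genes in fibroblast-like cells, Hoxa9 took 18.6% (13.9% to 24.2%), Hoxa10 31.4%, Hoxa11 22.9% and Hoxa13 27.1% (21.6% to 33.3%). Of 119 in pericyte-like cells, Hoxa9 took 37.8%, Hoxa10 35.3%, Hoxa11 12.6% and Hoxa13 14.3% (8.55% to 21.9%). Of 122 in endothelial-like cells, Hoxa9 took 67.2% (58.1% to 75.4%), Hoxa10 30.3%, Hoxa11 1.64% and Hoxa13 0.820% (0.0208% to 4.48%). Control epithelium, with 21865 such UMIs, had 45.6% Hoxa9 (44.9% to 46.3%), 34.7% Hoxa10, 7.03% Hoxa11 and 12.7% Hoxa13. Hoxa11 and Hoxa13 each took a larger share in fibroblast-like cells than in endothelial-like or control epithelial cells, with intervals that did not overlap. Detection differs between genes, so the shares compare classes, not genes. By cells, 76 of 142 fibroblast-like and 25 of 73 pericyte-like cells had a Hoxa11 or Hoxa13 UMI, against 3 of 121 endothelial-like cells. Of the fibroblast-like cells 45 had such a UMI beside one of Hoxa9 or Hoxa10, and 34 had neither.

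**Figure D3:**
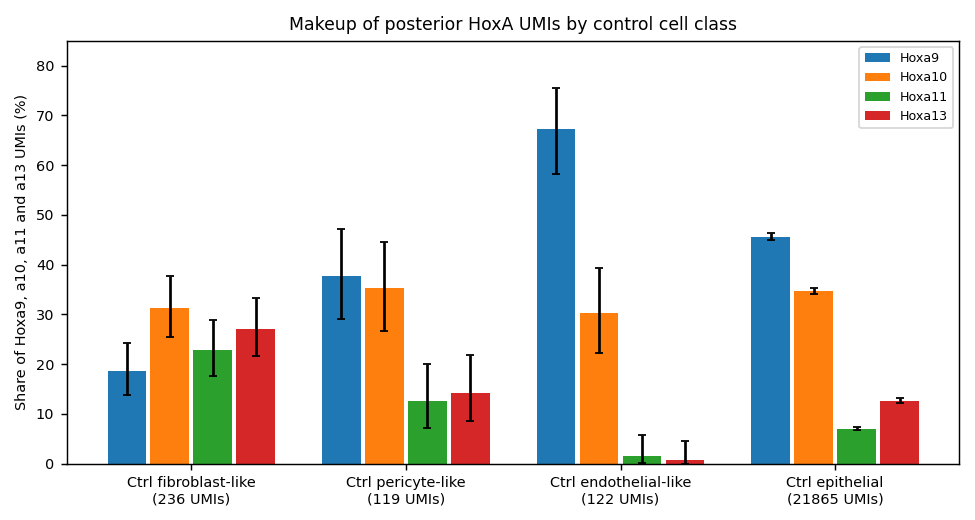
Share of the summed Hoxa9, Hoxa10, Hoxa11 and Hoxa13 UMIs (vertical axis, %, from 0) taken by each gene in 4 control classes (horizontal axis), with 95% Clopper-Pearson intervals. Hoxa11 and Hoxa13 take 22.9% and 27.1% in fibroblast-like cells and 1.64% and 0.820% in endothelial-like cells.

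Within control epithelium most cells carried several members at once. Among 1337 control epithelial cells thinned to 20000 UMIs each, 1 cell had none of Hoxa9, Hoxa10, Hoxa11, Hoxa13, Hoxb9 and Hoxb13, 474 had 4, 325 had 5 and 59 had all 6. The mean was 3.03 UMIs for Hoxa9, 2.33 for Hoxa10, 0.473 for Hoxa11, 0.842 for Hoxa13, 1.10 for Hoxb9 and 2.16 for Hoxb13. Hoxb13 had the highest ratio of variance to mean of the 6. Its variance was 2.42 times its mean, where genes of like mean had a median of 1.25, and 25.4% of cells had 0 UMIs where a Poisson count of that mean gives 11.5%. The ratio was 1.71 for Hoxa9, 1.70 for Hoxa10, 1.26 for Hoxa11, 1.75 for Hoxa13 and 1.63 for Hoxb9, against 1.33, 1.26, 1.10, 1.13 and 1.15 for genes of like mean. Set against genes of like mean, Hoxb13 and Hoxa13 stood about level, above 90.4% and 90.7% of them. Across these cells, which share 1 library, the highest rank correlations were 0.26 between Hoxa9 and Hoxa10 and 0.24 between Hoxa10 and Hoxa11. Next were 0.21 between Hoxb9 and Hoxb13 and 0.18 between Hoxa9 and Hoxa11. The lowest were -0.15 between Hoxa11 and Hoxb13 and -0.11 between Hoxa13 and Hoxb9. Hoxa13 was not correlated with its cluster neighbours (0.01 with Hoxa9, 0.03 with Hoxa10 and -0.02 with Hoxa11). All of these are weak.

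Hoxa13 also went its own way across subsets of control epithelium. Subsets were cells with at least 3 UMIs of a gene, set against cells with 0. In cells with Lgr5, the R-spondin receptor of crypt base stem cells (598 cells), Hoxa13 was at 49.6 CPM, against 33.2 CPM in 922 cells without, a fold of 1.49 (1.37 to 1.63). Hoxb9 was at 38.3 against 66.9 CPM (fold 0.572, 0.529 to 0.619) and Hoxb13 at 87.6 against 119 CPM (fold 0.736, 0.697 to 0.777) in the same cells. In 618 cells with the lipase gene Pnliprp2, against 1022 without, the fold was 1.73 for Hoxa13 (1.59 to 1.88) and 0.766 for Hoxa9 (0.732 to 0.802). In 326 cells with the transcription factor gene Sox11, against 1456 without, it was 1.63 for Hoxa13 (1.49 to 1.78) and 1.29 for Hoxa11 (1.14 to 1.46), with Hoxb13 at 0.766 (0.715 to 0.820).

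Cells with Mki67, a marker of cycling cells, had the opposite directions for Hoxa13 and Hoxb9. In 345 such cells against 1389 without, the fold was 0.612 for Hoxa13 (0.556 to 0.673), 1.35 for Hoxb9 (1.26 to 1.45) and 1.25 for Hoxa9 (1.20 to 1.31). Clu, a gene of injured and regenerating gut epithelium, went with a fold of 0.706 for Hoxb13 (0.660 to 0.756) and 0.674 for Hoxb9 (0.615 to 0.740), in 1259 against 366 cells, while Hoxa13 was at a fold of 1.24 (1.09 to 1.41). In 24 cells with Krt20, a keratin of surface epithelium, Hoxa13 was at a fold of 0.485 (0.313 to 0.718) over 1910 cells without. Cells with the lipoxygenase gene Alox12 (385, against 999 without) had a fold of 0.766 for Hoxa11 (0.675 to 0.867), and only 16 cells had 3 UMIs of the goblet cell mucin gene Muc2, too few to compare. Over these 7 subsets and 6 members, 1 of 42 folds was 2-fold lower and 0 were 2-fold higher. The interval of 28 left out 1. The share over all genes was not computed for these subsets, so nothing is read from these counts.

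Depth moved with these subsets. Cells with Mki67 had a median of 48916 UMIs against 23058 without, and those with Lgr5 36122 against 23266. Across quartiles of depth, Hoxa13 was at 58.3, 48.5, 42.1 and 37.0 CPM from the shallowest to the deepest, Hoxb9 at 36.8, 52.1, 52.4 and 59.5 CPM. The 1337 control epithelial cells that reached 20000 UMIs were then thinned to 20000 UMIs each, and shallower cells were left out. This left 492 against 561 cells for Lgr5 and 21 against 1288 for Krt20. The Hoxa13 fold was 1.51 (1.32 to 1.74) for Lgr5, 1.74 (1.53 to 1.98) for Pnliprp2 and 1.56 (1.35 to 1.80) for Sox11. It was 0.675 (0.573 to 0.791) for Mki67, 1.58 (1.28 to 1.96) for Clu and 0.331 (0.121 to 0.723) for Krt20. The 21 Krt20 cells had a mean of only 0.286 Hoxa13 UMIs. The Hoxb9 fold was then 0.587 for Lgr5 (0.518 to 0.665) and 1.28 for Mki67 (1.13 to 1.44), and the Hoxb13 fold 0.733 for Lgr5 (0.672 to 0.799). These folds kept the direction of the full counts. Thinning keeps the mix of genes in each cell, so a trend of CPM with depth stays in these folds. The part of that trend in them was not tested. Folds near 1 crossed it after thinning for Hoxa9 with Clu (0.974 thinned, 1.03 in full counts), Hoxa9 with Krt20 (1.14 and 0.995) and Hoxa13 with Alox12 (1.05 and 0.992).

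**Figure D4:**
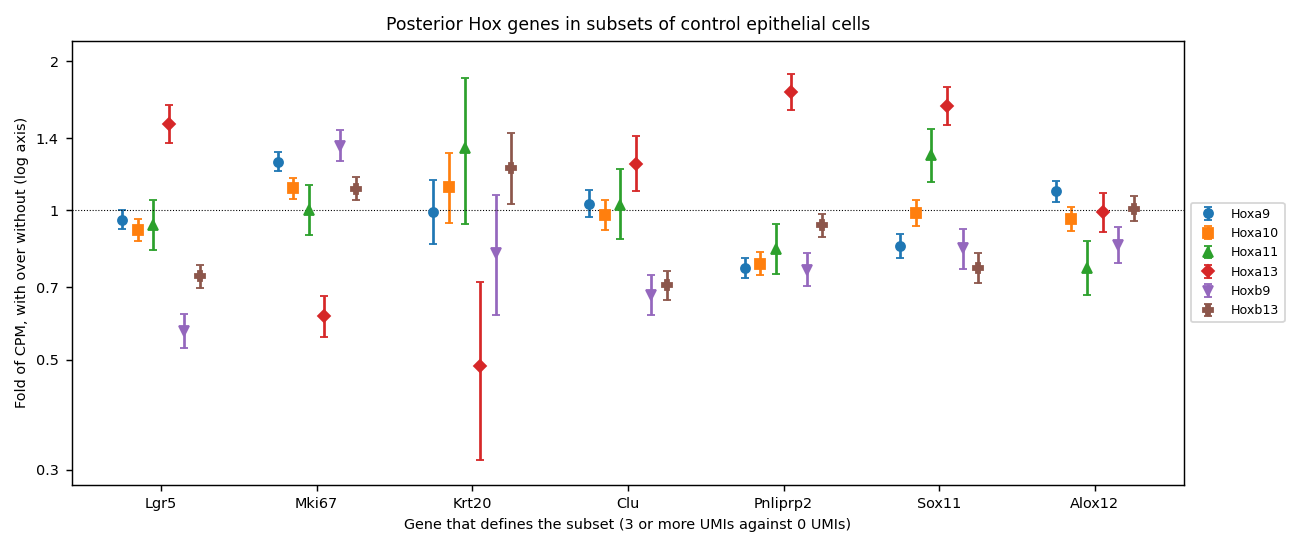
Fold of CPM (vertical axis, log scale) of 6 posterior Hox genes in control epithelial cells with at least 3 UMIs of a gene over cells with 0 UMIs of it (horizontal axis), with 95% intervals. Hoxa13 stands at 1.49, 1.73 and 1.63 for Lgr5, Pnliprp2 and Sox11 and at 0.612 and 0.485 for Mki67 and Krt20.

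The few Hoxd11, Hoxd12 and Hoxd13 UMIs of control epithelium sat together in a handful of cells. Of 1968 cells, 9 had Hoxd11 and 7 had Hoxd13, and 6 of these had both, which makes 10 cells with either. These 10 cells were chosen after the values were seen. Their median depth was 36936 UMIs, against 26228 in all control epithelial cells. All 10 Hoxd12 UMIs of control epithelium and 4 of its 8 Hoxd10 UMIs were in them too. Of the HoxD genes of lower number, control epithelium had 9 Hoxd8 UMIs in 9 cells and 8 Hoxd9 UMIs in 6 cells, with 0 of either in these 10. The 10 cells hold 382476 of the 65781632 UMIs of the class. Under 1 UMI of either gene would fall there at an even spread, so nothing is read from this 0. The cell with the most had 3 Hoxd10, 5 Hoxd11, 7 Hoxd12 and 6 Hoxd13 UMIs among 32461 in all, and the next had 6 Hoxd11, 2 Hoxd12 and 6 Hoxd13 UMIs among 85669. The first of these had 55 and the other 241 Epcam UMIs, and neither had a Col1a1 or Col3a1 UMI, collagen genes of fibroblasts. Of the other 8 cells, 2 had 1 Col3a1 UMI each and 1 had 1 Col1a1 UMI.

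These 10 cells also had another mix of the remaining members. Hoxa11 had 0 UMIs in them (3 UMIs would be 7.84 CPM), against 23.5 CPM in the 1958 other control epithelial cells, at which 8.99 UMIs would fall. Hoxa13 had 2 UMIs (5.23 CPM, 0.633 to 18.9), against 42.3 CPM in the other cells. Hoxb13 had 104 UMIs (272 CPM, 222 to 329) against 104 CPM, and Hoxb9 46 UMIs (120 CPM, 88.1 to 160) against 54.1 CPM. Hoxa9 was at 154 CPM (117 to 199) against 152 CPM, and Hoxa10 had 28 UMIs (73.2 CPM, 48.6 to 106) against 116 CPM. Among other genes, the transglutaminase gene Tgm4 was found in 6 of these cells, at 301 CPM over all 10 against 11.4 CPM in the others. Neutrophil genes were also higher in the sum of the 10 cells, each found in only part of them. S100a8 was at 688 CPM in the 10 cells, found in 4 of them with at most 141 UMIs in 1, against 67.5 CPM in the others. S100a9 was at 797 against 88.7 CPM (found in 5 cells) and Retnlg at 54.9 against 5.24 CPM (2 cells). Csf3r, a neutrophil receptor, was at 13.1 against 2.60 CPM (5 UMIs in 2 cells). The histidine decarboxylase gene Hdc was at 154 against 8.95 CPM (5 cells). Tgm4, S100a9, Retnlg and Hdc were on no list set beforehand, so nothing is read from their being higher in these cells. In the 6 cells of these with no S100a8 UMI, a choice made after seeing the data, Hoxb13 was at 287 CPM (216 to 375), Hoxb9 at 122 CPM (77.5 to 184) and Hoxa13 at 10.6 CPM (1.29 to 38.4). Hoxa11 had 0 UMIs in these 6, where 4.42 would fall at the level of the other cells. The intervals cover counting error only, and 10 cells of 1 library set these values.

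Set beside all 39 Hox genes, the 8 posterior members made up 6 of the 9 genes used in control epithelium and 3 of the 14 used in endothelial-like cells. At 5 CPM or more stood 0 Hox genes in RSPO1-Fc epithelium, 7 in fibroblast-like, 9 in pericyte-like, 14 in endothelial-like, 1 in macrophage-like and 9 in control epithelial cells. Control epithelium used 7 HoxA genes but of the HoxB cluster only Hoxb9 and Hoxb13 at this level. Hoxb4 was at 38.0 CPM in pericyte-like, 55.5 in endothelial-like and 13 CPM in macrophage-like cells. In RSPO1-Fc epithelium it was at 0.393 CPM, in fibroblast-like cells at 0.635 (1 UMI) and in control epithelium at 0.517 CPM. Endothelial-like cells used 8 HoxB genes, with Hoxb7 at 62.9 CPM (0.289 in control epithelium), Hoxb8 at 37.0 and Hoxb5 at 23.8 CPM. Pericyte-like cells used 4, with Hoxb2 at 88.3 CPM and Hoxb3 at 23.1 CPM. Control epithelium had these 2 genes at 0.0304 CPM (2 UMIs) and 0.152 CPM (10 UMIs). Fibroblast-like cells had no HoxB gene at 5 CPM and 0 UMIs of Hoxb2, Hoxb3, Hoxb5, Hoxb6, Hoxb7 and Hoxb8. Of the HoxD genes, Hoxd11 reached 5 CPM in fibroblast-like and Hoxd8 (24.8 CPM) in endothelial-like cells. The 9 HoxC genes had 0 UMIs in all 6 classes.

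Against control epithelium, the 2-fold limit was met upward by 3 of the 11 Hox genes tested in pericyte-like cells and 5 of 13 in endothelial-like cells, where 20% and 19.9% of all genes were higher. None of these was a posterior member. All of them reached 20 CPM through the pericyte-like or endothelial-like cells alone. They therefore had to come out higher there, and nothing is read from these counts. Hoxa7, the next gene of the cluster in front of Hoxa9, was at 0.197 CPM in RSPO1-Fc and 59.1 CPM in control epithelium. It was at 23.5 CPM in fibroblast-like, 43.5 in pericyte-like, 75.1 in endothelial-like and 0.283 CPM (1 UMI) in macrophage-like cells. Hoxa5 was at 6.99 CPM in fibroblast-like, 31.7 CPM in endothelial-like and 38.3 CPM in control epithelial cells.

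**Figure D5:**
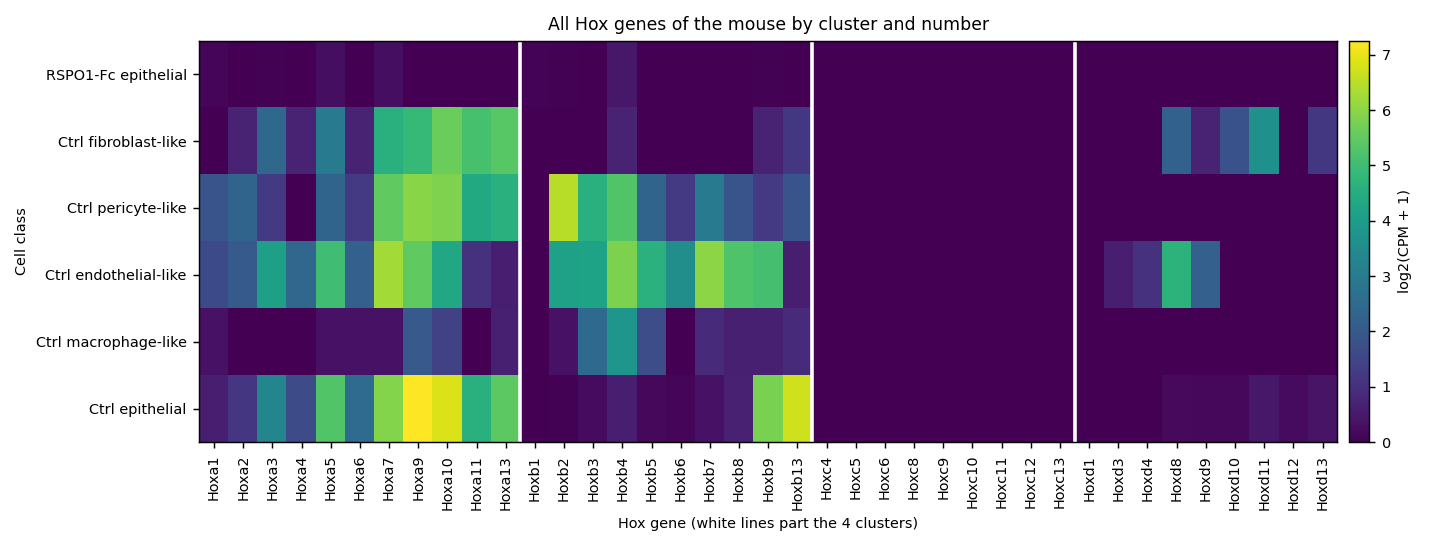
Level of all 39 Hox genes (columns, by cluster and number) in RSPO1-Fc epithelial cells and the 5 control classes (rows), as log2(CPM + 1) in colour. HoxA genes are bright in control epithelial and stromal rows, the HoxB genes below number 9 in pericyte-like and endothelial-like rows, and the RSPO1-Fc row and all HoxC columns are dark.

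Other genes of the Hox pathway were compared between the epithelia from lists of cofactors, 8 regulators and 8 cluster transcripts. Of the 7 regulators at 20 CPM, 2 were at least 2-fold higher and 2 lower, where 7.25% and 18.5% of all genes tested were. With so few genes, nothing is read from these counts. Cdx2, the intestinal homeobox factor, was at 105 CPM in RSPO1-Fc and 5.55 CPM in control epithelium, and Cdx1 at 67.4 and 26.2 CPM. Both Cdx genes thus stood opposite to the posterior Hox genes. The Polycomb methyltransferase gene Ezh2 was 2.02-fold lower (77.1 CPM in RSPO1-Fc, 156 CPM in control epithelium), and the trithorax methyltransferase gene Kmt2a was 3.001-fold lower (31.0 and 93.1 CPM). Hottip, a long noncoding RNA next to Hoxa13, had 0 UMIs in RSPO1-Fc epithelium, 1.91 CPM in fibroblast-like cells, 0 UMIs in the other 3 non-epithelial classes and 9.36 CPM in control epithelium. The cofactor gene Meis2 was at 45.1 CPM in fibroblast-like, 46.2 in pericyte-like, 29.1 in endothelial-like and 18.5 CPM in control epithelial cells, with 0 UMIs in macrophage-like cells.

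A gene of the proximal gut and genes of the sex chromosomes differed along with the Hox genes. Gata4, known from the proximal small intestine, was at 43.9 CPM in RSPO1-Fc and 0.0152 CPM in control epithelium, where 3 UMIs would be 0.0456 CPM. Of the same list, Gata6 was at 33.4 and 56.2 CPM and Onecut2 at 237 and 277 CPM, each within 2-fold, and Osr2 was under 20 CPM in both. Xist, transcribed from the inactive X chromosome, had 3 UMIs in RSPO1-Fc epithelium and stood at 1151, 1088, 1086, 945 and 1529 CPM in fibroblast-like, pericyte-like, endothelial-like, macrophage-like and epithelial control cells. The Y-linked genes Eif2s3y and Ddx3y were at 56.7 and 33.8 CPM in RSPO1-Fc epithelium and had 0 UMIs in control epithelium. The animal, the intestinal segment, the chemistry and RSPO1-Fc cannot be told apart as sources of the Hox difference between the 2 epithelia. The lineages of the control culture come from 1 library.

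The letters of Cdx motifs were looked up in the start regions of the members in RefSeq, GRCm38.p6, 250 bases before to 50 after each start. Of the 8 members, 6 had an entry there, with 8 start regions in all. TTTATG was found on either strand in 11.9% of 32851 start regions and TTTACG in 3.03%, and the motifs do not overlap each other. Of the members' start regions, 1 held either motif, that of Hoxd11 at chr2:74679308-74679607 (plus strand), with 1 match of each. It is shown because it is that region, with the matches in capitals, of which CATAAA is TTTATG on the other strand.
Hoxd11: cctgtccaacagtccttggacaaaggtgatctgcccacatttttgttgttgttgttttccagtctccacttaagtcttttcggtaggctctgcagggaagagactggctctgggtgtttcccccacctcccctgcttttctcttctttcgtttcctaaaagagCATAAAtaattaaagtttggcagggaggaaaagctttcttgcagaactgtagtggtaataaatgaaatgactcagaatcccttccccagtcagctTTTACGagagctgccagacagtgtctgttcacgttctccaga
A match describes these letters and is not a binding site, and no match in the others says nothing of the factor.

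For each of the 6 members at 20 CPM or more in a class, the 3 genes outside the Hox list with the most like levels were found, by Euclidean distance of log2(CPM + 1) over the 6 classes. Hoxb9 was nearest to Limch1 (distance 0.72), which was at 40.2 CPM in endothelial-like and 46.3 CPM in control epithelial cells, and then to Tnni1 and Plcb4. Hoxb13 was nearest to Cd177 (1.15), Evx1os and Cadps, Hoxa11 to Apod (1.45), Prelp and Sytl2, and Hoxa13 to Zfp469 (1.72), Apod and Ncald. Hoxa9 was nearest to Msrb3 (2.71), Gnb5 and Hspb8, and Hoxa10 to Gnb5 (2.53), Khdrbs3 and Msrb3. Among the members themselves, Hoxa11 and Hoxa13 were 1.17 and Hoxa9 and Hoxa10 1.51 apart. In each of these pairs this was less than the distance of either gene to its nearest gene outside the list. Hoxb9 and Hoxb13 went the other way, since they were 4.68 apart, farther than each was from its nearest gene outside the list.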

How the data were processed

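Organoids of 2 cultures, 1 with RSPO1-Fc and 1 without, were measured as 1 droplet library each. The deposited matrices hold UMI counts, not normalized, for every gene and barcode, without a filter for cells. Per the labels' protocols reads were aligned to mm10 with the v2 kit, with 131291 (RSPO1-Fc) and 58414 (control) mean reads per cell. Cell Ranger 2.1.1 and Seurat 3.1.1 stand in the submitters' processing notes, whereas Cell Ranger 3.1.0 made the control matrix, per the file headers. The tables hold 27998 genes and 737280 barcodes (RSPO1-Fc) and 31053 genes and 6794880 barcodes (control). The control barcode list has the length of the v3 kit, so chemistry and treatment cannot be told apart. Tables were joined on 27514 Ensembl identifiers, which hold 99.8% of the UMIs of each.

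The 8 members, the gene lists and the markers were chosen with earlier results of these data known, and the text names the members, those lists, Hox genes at 20 CPM or more and the 3 nearest genes. It also names Tgm4, S100a9, Retnlg and Hdc, which were on no list. Some items of these lists are not reported here. Cells needed 2000 UMIs, with no limit on mitochondrial share. The gate markers were those fixed with the design, and the limits of 5 Epcam UMIs, 10 gate UMIs and 4 gate genes were set from the rule of the gene set and, for the last 2, after marker counts were seen. Cells that passed 2 gates were left out as mixed (56, control), except that a cell with both fibroblast and pericyte gates was pericyte-like when Rgs5, Kcnj8, Abcc9 and Higd1b outnumbered Dcn, Lum and Pdgfra. No doublet caller was run. Cells are not replicates, so UMIs were summed per class over shared genes and scaled to CPM, and no p-value was computed. Intervals are exact Poisson (levels), conditional Clopper-Pearson (ratios) and Clopper-Pearson (shares), at 95%. Log2 ratios used a pseudocount of 1 CPM. A floor of 3 UMIs was used against 0. The scripts were tested on simulated data, and were run in Python 3.11.15 with numpy 2.4.6, scipy 1.17.1 and pandas 2.3.3. Alternatives were the UMI, Epcam and marker limits, mitochondrial share, scaling, free RNA, the deepest cells and the filter on low genes.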

Additional observations from a re-analysis of the deposited data

Results flagged for a closer look

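Posterior Hox UMIs were also found in control barcodes outside the 6 cell classes. The 803 control barcodes with at least 2000 UMIs that passed no gate held 248 member UMIs (77.1 CPM), of which 89 were Hoxa9, 56 Hoxa10, 49 Hoxb13, 28 Hoxb9, 16 Hoxa13 and 10 Hoxa11. These barcodes had the neutrophil gene S100a8 at 8371 CPM and the epithelial keratin gene Krt8 at 212 CPM, with a median of 3158 UMIs. The 56 mixed control barcodes, which passed more than 1 gate, held 691 member UMIs (321 CPM), with 191 of Hoxa9 and 145 of Hoxb13. They had Krt8 at 1296 CPM beside the macrophage gene Lyz2 at 1530 CPM. The part of free RNA and of doublets in both values was not tested.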

How the results depend on the processing

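The count of members lower in RSPO1-Fc epithelium and the counts of members at 5 CPM or more in each control class were recomputed with minimums of 5000 and 10000 UMIs, at least 10 Epcam UMIs, cells over 20% mitochondrial UMIs left out, the highest 2% of UMI totals left out, median-of-ratios scaling, free RNA subtracted and a marker limit 2 times higher. The first count was also run with no filter on low genes. A limit of no Epcam UMI in the non-epithelial cells was added after seeing the data. All 55 of these values were within 1.5 times the main counts, and with no filter on low genes 8 in place of 6 members were lower. Of 360 recomputed ratios of single members to control epithelium, 283 moved within their counting intervals, 77 moved beyond them and 0 were counted as reversed. These groups do not overlap, so a ratio that changed sign within its interval is among the 283. With free RNA subtracted, the log2 ratio in macrophage-like cells was -6.63 for Hoxa9 and -6.87 for Hoxa10, against -5.21 and -5.43 before, and that of Hoxb13 in fibroblast-like cells -6.74 against -5.54. Median-of-ratios scaling shifted the median log2 ratio of all genes from -0.22 in RSPO1-Fc, -0.13 in fibroblast-like, -0.12 in pericyte-like, -0.16 in endothelial-like and -0.45 in macrophage-like cells to near 0. The log2 ratio of Hoxa13 in fibroblast-like cells was -0.049, which is smaller than this shift, so its direction depended on the scaling. Free RNA could not be subtracted in RSPO1-Fc epithelium, which had no other lineage to scale it by. No paired analysis was possible because each group holds 1 library, and for the same reason no replicate could be left out. Levels under 3 UMIs in a class (4.08 CPM in pericyte-like and 1.91 CPM in fibroblast-like cells) could not be told from 0.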
